A study of Mus musculus with 2 samples.

Results

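Microglia are the resident macrophages of the brain. At rest they express a homeostatic programme that includes the purinergic receptor gene P2ry12, the membrane protein gene Tmem119 and the transcription factor gene Sall1, and they present little antigen. Interferon gamma, a cytokine made mainly by T cells and NK cells, is known to induce MHC class II in macrophages through the transactivator Ciita, and the invariant chain Cd74 escorts MHC class II molecules to the compartment where peptide is loaded.

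The cells described here are 260 of the 10842 barcodes of a single-cell RNA library titled positive, out of 21259 barcodes in the 2 libraries of the study. They were chosen by their counts of unique molecular identifiers (UMIs, 1 per captured RNA molecule). A barcode needed at least 5 UMIs summed over the 6 homeostatic genes P2ry12, Tmem119, Siglech, Gpr34, Cx3cr1 and Sall1 and at least 1 UMI of Csf1r, the receptor gene that microglia and macrophages need to survive. It could hold at most 4 UMIs of the epithelial genes Epcam, Krt8 and Krt18, no UMI of the macrophage gene Arg1, and at most 1 UMI of the monocyte genes Ly6c2 and Ccr2. Levels of these 13 genes are therefore given as a description and are no finding.

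Both libraries came from brain tissue of Balb/c mice in a model of breast cancer metastasis with 4T1, a mouse mammary carcinoma line that the labels class as triple-negative, and cells were captured with the Singleron GEXSCOPE kit. There was 1 library titled positive and 1 titled control. The treatment field of the labels goes against the titles, giving 4T1 metastasis to the titled control library and its absence to the titled positive library, so groups are named by title and no direction with or without metastasis is drawn. Neither the number, age and sex of the mice nor any pooling is given in the sources used here. With 1 library per group no difference between the libraries has a replicate check, and no test was made.

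The same rule found 260 cells in the titled positive library (2.40% of its barcodes, exact Clopper-Pearson 95% interval 2.12 to 2.70%) and 3083 cells in the titled control library (29.6%, 28.7 to 30.5%). The members held 1374352 UMIs in all, with a median of 4796 UMIs and 1776 genes per cell, and the titled control microglia 13829150 UMIs, with a median of 3567 UMIs and 1489 genes. Levels are CPM, the UMIs of a gene summed over a group of cells and scaled to that group's total, and ratios are log2 ratios of CPM with a pseudocount of 0.5 counts. Intervals given are 95% intervals that cover counting error only, except those of list medians. The interval of a list median is the median of its genes' bounds and is no 95% interval of that median. The libraries shared 149 barcodes, of which 3 were titled positive microglia and none was a member in both.

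The homeostatic sum that chose the cells ran from 5 to 24 UMIs in titled positive microglia, with a median of 8, and from 5 to 221 in titled control microglia, with a median of 50. The titled positive distribution therefore lay against the threshold. The 82 cells just inside it, with a sum of 5 or 6, carried Csf1r at 1692 CPM, Cd74 at 19078 CPM and the complement gene C1qa at 5926 CPM. The 68 barcodes just outside it, with a sum of 3 or 4 and every other condition met, carried these at 1537, 17244 and 5498 CPM, in that order. In the titled positive library the barcodes on either side of the threshold thus had like levels, whereas the 132 titled control cells with a sum of 5 or 6 held Csf1r at 294 CPM and C1qa at 473 CPM. Of the 608 titled positive barcodes with a sum of at least 5, the Csf1r condition left 594, the epithelial condition 389, the Arg1 condition 278 and the monocyte condition 260.

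Of the markers given for these cells, P2ry12, Tmem119, Cx3cr1 and Sall1 belong to the sum that chose them, so their detection is a description and does not check the label. Both P2ry12 and Tmem119 were detected in 149 of the 260 cells (57.3%), while 14 cells had no UMI of P2ry12, Tmem119 or Sall1. P2ry12 was seen in 81.2% of titled positive microglia, Tmem119 in 70.0%, Cx3cr1 in 94.2%, Sall1 in 18.5% and Cd74 in 100% of them. In titled positive oligodendrocytes, which had a median of 4506 UMIs, the shares were 3.33% for P2ry12, 1.58% for Tmem119, 2.63% for Cx3cr1 and 4.38% for Sall1, but 93% for Cd74 at a median of 3 UMIs per cell against 90.5 in the microglia. After thinning each cell to 2000 UMIs the shares in the microglia were 59.2% for P2ry12, 49.6% for Tmem119 and 7.69% for Sall1. Titled control oligodendrocytes, with a median of 5762 UMIs, had higher unthinned shares than those of the titled positive library. These were 37.8% for P2ry12, 10.5% for Tmem119, 22.9% for Cx3cr1 and 16.7% for Sall1. Thinned, P2ry12 was in 15.8% of titled control and 1.58% of titled positive oligodendrocytes.

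Cx3cr1, a fractalkine receptor gene that monocytes and macrophages also use, supplied 42.0% of the UMIs of the homeostatic sum in titled positive microglia and 23.6% in titled control microglia, and P2ry12 supplied 22.4% and 41.3%. In 23 titled positive cells at least 80% of the sum came from Cx3cr1, and in none from Siglech, which plasmacytoid dendritic cells also express. Of 9 plasmacytoid dendritic cell markers, Ccr9, Klk1, Ly6d, Smim5 and Spib stood at 0 in the members. Monocyte and macrophage markers outside the rule were detected for 14 of 15 genes, all but Vcan, with a summed level of 4578 CPM in titled positive microglia and 1857 CPM in titled control microglia. In other cells of the titled positive library the sum was 16786 CPM in Arg1-high macrophages, 15348 CPM in carcinoma cells and 2055 CPM in oligodendrocytes, so the summed list does not mark macrophages there. Its gene S100a6 alone was at 11330 CPM in carcinoma cells and 997 CPM in the microglia, whereas Lyz2 was at 180 CPM in carcinoma cells, 9411 CPM in Arg1-high macrophages and 1628 CPM in the microglia.

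RNA of other cell types was present in both groups of microglia. Of 10 carcinoma markers outside the rule all were detected in titled positive microglia, with a summed level of 728 CPM. The level was 768 CPM in oligodendrocytes and 832 CPM in Arg1-high macrophages of that library, and 7989 CPM in carcinoma cells. The microglia, oligodendrocytes and macrophages were all held to at most 4 epithelial UMIs, so like levels follow in part from this shared limit. Titled control microglia held 42.4 CPM, with Cldn4, Krt19 and Prkg2 at 0. The 9 oligodendrocyte markers, all detected in both groups, summed to 815 CPM in titled positive microglia and 19939 CPM in titled control microglia, and 8 astrocyte markers to 109 and 2033 CPM. Scrublet called 2 titled positive microglia (0.769%) and 372 titled control microglia (12.1%) doublets.

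**Figure D1:**
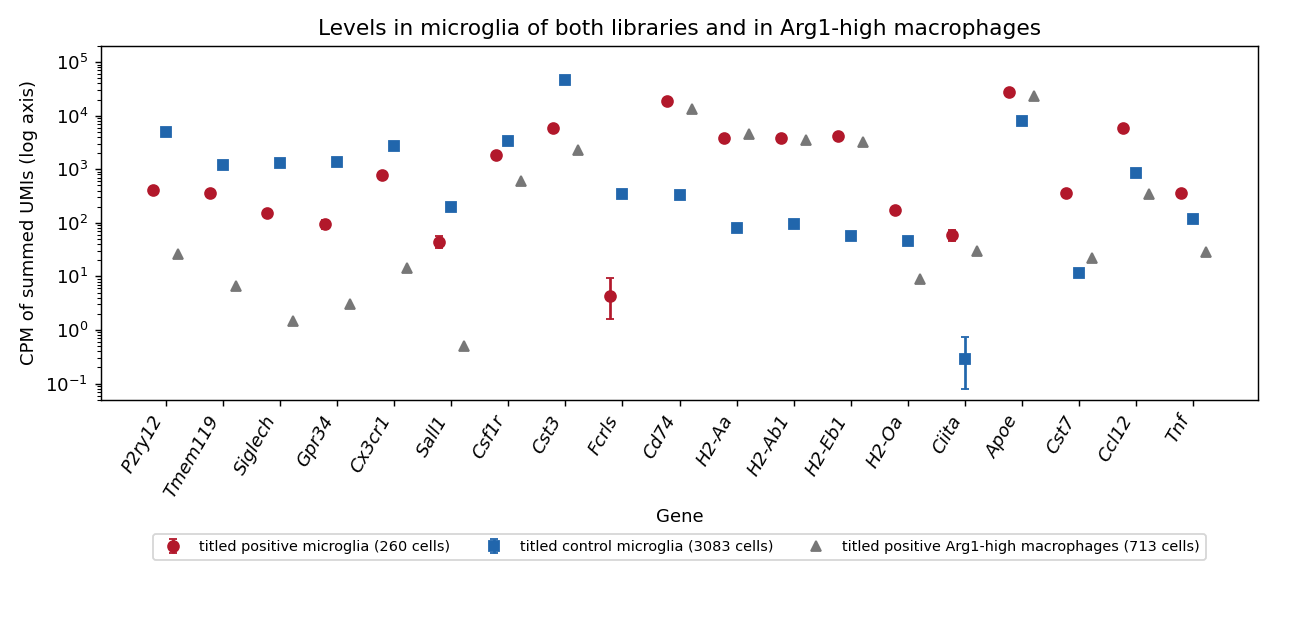
Levels of 19 genes as CPM of summed UMIs (log axis) in titled positive microglia (circles), titled control microglia (squares) and titled positive Arg1-high macrophages (triangles). Bars are exact Poisson 95% intervals and are mostly smaller than the points, and Fcrls, at 0 in the macrophages, has no triangle. The homeostatic genes at the left were lower in titled positive than in titled control microglia and the MHC class II genes higher, with Cd74 at 18530 and 330 CPM.

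Homeostatic genes outside the rule were lower in titled positive microglia. Of 24 listed genes 23 had enough UMIs, and all 23 stood below the titled control level, 20 of them by at least 2-fold (median log2 ratio -2.07). Their levels were not part of the rule, but cells with a higher homeostatic sum also had more of their RNA, as given further on. Among all 13820 genes compared, 9635 were lower at all, 33.4% were lower and 8.36% higher by at least 2-fold, and the median was -0.51. The lysosomal protease inhibitor gene Cst3 stood at 5793 CPM (5667 to 5922) in titled positive microglia and 46906 CPM (46792 to 47020) in titled control microglia.

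The Fc receptor-like gene Fcrls, one of the most microglia-restricted genes of the mouse, was at 4.37 CPM (1.60 to 9.50) in titled positive microglia and 341 CPM in titled control microglia, a log2 ratio of -6.17 (-7.73 to -5.16). It was seen in 1.92% of titled positive and 49.3% of titled control cells. Hpgd, which breaks down prostaglandins, had no UMI in titled positive microglia and 46.1 CPM in titled control microglia, which makes it at least 21.1-fold lower against a floor of 3 counts in the titled positive sum. Entpd1, the ectonucleotidase CD39, differed least, at 189 and 212 CPM, and its interval of -0.35 to 0.02 included 0. The difference was thus uneven across the list.

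The 6 genes of the sum were all lower as well, which describes the cells and supports nothing. P2ry12 (chromosome 3, 59216272 to 59262871, GRCm38) stood at 412 CPM in titled positive and 4853 CPM in titled control microglia. Tmem119 (chromosome 5, 113793729 to 113800516) stood at 362 and 1215 CPM. Gpr34 stood at 93.9 and 1380 CPM, Siglech at 155 and 1333 CPM, Cx3cr1 at 771 and 2766 CPM and Sall1 at 44.4 and 193 CPM.

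MHC class II genes were higher in titled positive microglia. Of 10 listed genes 9 were higher, each by at least 2-fold, with a median log2 ratio of 5.15 over the list. Cd74 stood at 18530 CPM (18303 to 18759) in titled positive microglia and 330 CPM (321 to 340) in titled control microglia. Per cell, Cd74 ran from 2 to 277 UMIs around a median of 90.5 in titled positive microglia, and from 0 to 258 UMIs around a median of 0 in titled control microglia, so single titled control cells reached the titled positive range. The middle 50% of cells held 56 to 130.5 UMIs in the titled positive and 0 to 1 in the titled control group.

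The class II beta chain gene H2-Eb1 (chromosome 17, 34305867 to 34316674) was at 4134 CPM in titled positive and 56.6 CPM in titled control microglia. Ciita, which drives transcription of the class II genes, was at 58.2 CPM (46.2 to 72.5) and 0.289 CPM (0.0788 to 0.741). It was seen in 22.7% of titled positive and 0.130% of titled control cells. H2-Oa and H2-Ob encode the inhibitor of peptide loading that is known mainly from B cells. H2-Oa stood at 175 CPM in titled positive microglia and 46.8 CPM in titled control microglia. H2-Ob stood at 10.9 and 12.9 CPM, with a log2 ratio of -0.19 (-1.11 to 0.52) that turned to 0.20 when cells were thinned. The counts of H2 genes, of class I as well as class II, are uncertain. The H2 family holds close copies and differs between mouse strains, and reads could be assigned to another member.

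As a guide to free RNA, class II levels were also taken in oligodendrocytes, which are not known for class II at rest. Interferon gamma genes, however, summed to 6162 CPM in titled positive and 151 CPM in titled control oligodendrocytes. Class II RNA of the oligodendrocytes' own was therefore not told apart from free RNA. In titled positive oligodendrocytes Cd74 was at 870 CPM and H2-Eb1 at 187 CPM, below the microglia of the same library. After thinning to 2000 UMIs, H2-Aa was detected in 95% of titled positive microglia (unthinned 97.7%), 5.42% of titled control microglia (9.60%), 34.3% of titled positive oligodendrocytes (59.4%) and 3.71% of titled control oligodendrocytes (9.59%).

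The proximal promoters of the class II genes share a Y box, an inverted CCAAT element bound by NF-Y. In the 150 bases before each RefSeq start (GRCm38.p6), CCAAT was found on either strand in 6 of the 7 class II genes that the RefSeq table holds, and in 27.7% of 27025 genes. The promoters of H2-Aa (chr17:34287824-34287973, minus strand) and H2-Eb1 (chr17:34305717-34305866, plus strand) are shown as examples of the genes with the high levels above, with CCAAT or its reverse complement in capitals.
H2-Aa: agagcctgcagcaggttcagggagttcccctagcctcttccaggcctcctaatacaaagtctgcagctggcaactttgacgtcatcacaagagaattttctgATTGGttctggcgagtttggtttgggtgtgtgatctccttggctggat
H2-Eb1: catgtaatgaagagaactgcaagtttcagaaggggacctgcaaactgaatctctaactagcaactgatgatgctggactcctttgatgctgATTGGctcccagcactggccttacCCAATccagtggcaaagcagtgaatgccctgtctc
The first match began 48 bases before the start of H2-Aa and 59 bases before that of H2-Eb1. A match is a description of the sequence and says nothing about binding in these cells.

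MHC class I and interferon genes were higher without exception in the measured lists. All 19 class I genes were higher (median log2 ratio 2.36), 18 of them by at least 2-fold, and so were all 21 measured type I interferon genes (1.95; 20 by at least 2-fold) and all 18 measured interferon gamma genes (4.04; 17 by at least 2-fold). These lists overlap in biology, since type I and type II interferons induce many of the same genes. The class I light chain gene B2m stood at 9693 CPM in titled positive and 3814 CPM in titled control microglia. Nlrc5, the transactivator of class I genes, stood at 45.8 and 2.39 CPM.

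Among type I interferon genes, the DNA sensor gene Ifi204 was at 311 CPM in titled positive and 9.40 CPM in titled control microglia, and the nucleic acid sensor gene Zbp1 at 415 and 13.7 CPM. Mx1, an antiviral GTPase, differed least, at 21.1 and 10.7 CPM. Among interferon gamma genes, the guanylate-binding protein gene Gbp4 stood at 857 CPM in titled positive and 11.8 CPM in titled control microglia, and the immunity-related GTPase gene Iigp1 at 792 and 4.77 CPM. Ubd had no UMI in titled control microglia and 17.5 CPM in titled positive microglia, at least 80.5-fold higher against the floor, but was seen in 1.54% of titled positive cells. Irf8, a transcription factor that microglia use at rest, was at 384 and 306 CPM, a log2 ratio of 0.33 (0.20 to 0.46), and this direction turned when cells were thinned to 2000 UMIs (-0.11).

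Iigp1 was at 1560 CPM in titled positive oligodendrocytes and 392 CPM in carcinoma cells. Its level was therefore not particular to microglia in that library. Gbp4 was at 210 CPM in those oligodendrocytes, 456 CPM in carcinoma cells and 555 CPM in Arg1-high macrophages. The summed lists were likewise high outside the microglia. Interferon gamma genes summed to 5934 CPM in titled positive microglia, 6162 CPM in titled positive oligodendrocytes and 151 CPM in titled control oligodendrocytes. Type I interferon genes summed to 6918, 6614 and 733 CPM in the same order, and class I genes to 33026, 24591 and 2115 CPM. Carcinoma cells held these lists at 3707, 5985 and 25391 CPM.

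Promoter elements bound by the STAT and IRF factors that act downstream of interferon receptors were looked for in the same 150-base windows. The interferon-stimulated response element, searched on both strands as GAAA and GAAA with any 2 bases between them, was found in 9 of 14 interferon gamma genes and 7 of 15 type I interferon genes that the table holds, against 1.85% of all genes. The gamma-activated site TTCNNNGAA, which reads the same on both strands, was found in 8 of 14 and 2 of 15, against 4.77% of all genes. The promoter of Igtp (chr11:58199406-58199555, plus strand), a GTPase gene that carries both, is shown with the response element in capitals.
Igtp: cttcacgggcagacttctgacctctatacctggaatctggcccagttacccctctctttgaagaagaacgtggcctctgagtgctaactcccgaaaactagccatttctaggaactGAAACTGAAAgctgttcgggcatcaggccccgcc
The element began 34 bases before the start.

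**Figure D2:**
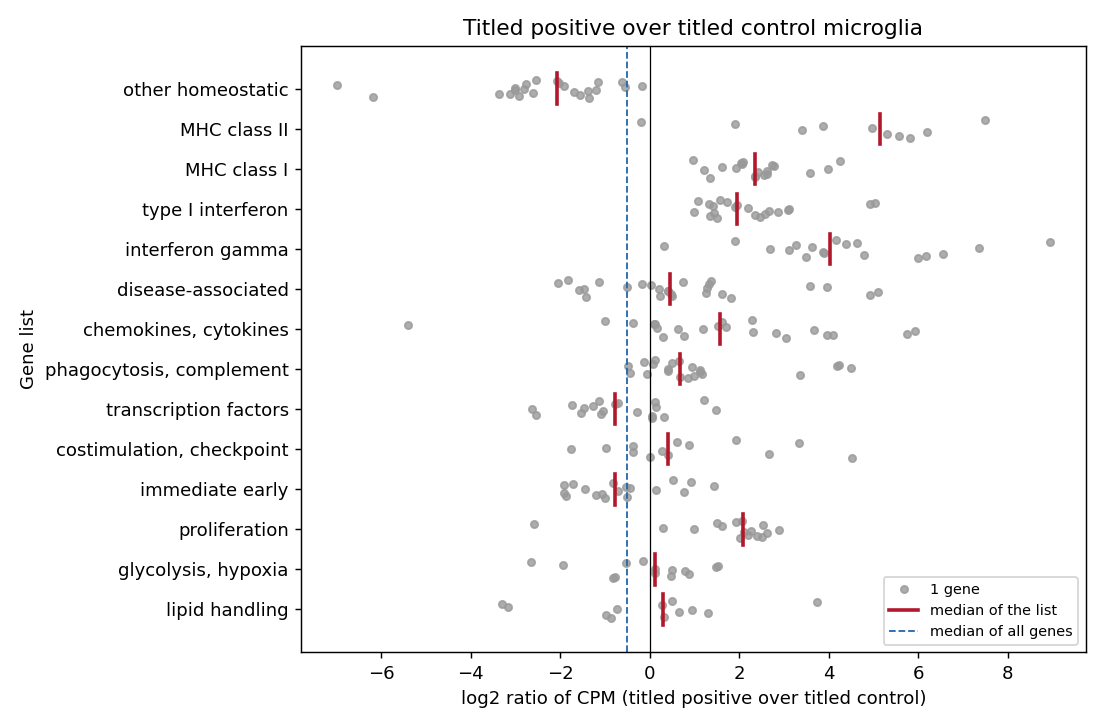
Log2 ratio of CPM in titled positive over titled control microglia for the genes of 14 lists, 1 point per gene with at least 20 UMIs in both sums together. Thick bars are list medians and the dashed line is the median of all 13820 genes (-0.51). MHC class II (5.15) and interferon gamma genes (4.04) lay farthest to the right and homeostatic genes (-2.07) farthest to the left.

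Chemokine and cytokine genes were mostly higher, 19 of 22, with a median of 1.58. Ccl12, a monocyte attractant of the mouse, stood at 5937 CPM (5809 to 6068) in titled positive microglia and 841 CPM (826 to 856) in titled control microglia. Cxcl9, which attracts T cells and is induced by interferon gamma, stood at 209 and 3.40 CPM, and Ccl8 at 212 and 3.90 CPM. Il6 had no UMI in titled positive microglia and 15.3 CPM in titled control microglia, at least 6.99-fold lower. Tgfb1, whose product maintains the microglial state, was at 69.9 and 141 CPM.

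Genes of disease-associated microglia, a state described around amyloid plaques, moved both ways, with 18 of 26 higher and a median of 0.45. Apoe, a lipid carrier, stood at 27877 CPM in titled positive and 7849 CPM in titled control microglia, and Cst7, a cysteine protease inhibitor, at 355 and 11.7 CPM. Spp1 stood at 1620 and 46.9 CPM, beside 3259 CPM in titled positive carcinoma cells, and the part of free RNA in its level was not tested. Fabp5 was lower, at 37.8 and 135 CPM, but higher by 0.54 on the log2 scale once estimated free RNA was subtracted. Chosen after their values were seen, Trem2 (627 and 1691 CPM) and Ctsd (3279 and 9848 CPM) were lower, although both belong to the same list.

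Among phagocytic and complement genes 17 of 21 were higher, with a median of 0.67. The activating Fc receptor gene Fcgr4 stood at 910 CPM in titled positive and 40.4 CPM in titled control microglia, and the scavenger receptor gene Msr1 at 214 and 11.4 CPM. The complement gene C1qc, already abundant at rest, was at 8302 and 4196 CPM. The integrin gene Itgam was at 395 and 533 CPM. Apoc1, an apolipoprotein gene in the list of lipid handling genes, was at 349 and 26.1 CPM, while that list as a whole split, with 7 of 12 genes higher and a median of 0.30 whose interval of -0.47 to 0.76 included 0 and which was -0.20 with Cx3cr1 and Siglech left out of the sum.

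Of 19 measured transcription factor genes 12 were lower, with a median of -0.77, a share no greater than the 9635 lower of 13820 genes compared. Bhlhe41 stood at 13.8 CPM in titled positive and 87.5 CPM in titled control microglia, and Maf at 49.5 and 288 CPM. Cebpb, which serves inflammatory responses, stood at 45.8 and 16.5 CPM, and Id2 at 798 and 343 CPM. Of 13 measured costimulation and checkpoint genes 9 were higher (median 0.41). The ligand gene of the PD-1 receptor, Cd274, was at 138 and 5.93 CPM, and the checkpoint gene Vsir was lower, at 223 and 749 CPM. Immediate early genes, which also respond to tissue dissociation, were lower for 13 of 18 (median -0.77), a share near that of all genes, with Egr1 at 319 and 1205 CPM and Nr4a1 higher at 223 and 82.7 CPM.

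The 10 genes with the highest ratio over the titled control microglia were led by Il1r2, a decoy receptor for interleukin 1, at 282 CPM (255 to 312) in titled positive and 0.217 CPM (0.0447 to 0.634) in titled control microglia. Il1r2 was at 973 CPM in Arg1-high macrophages. The killer cell receptor gene Klrk1 was at 116 and 0.795 CPM, the cytokine inhibitor gene Il18bp at 443 and 4.12 CPM, and AW112010 at 4023 and 48.2 CPM. Gbp2b and Iigp1 also belonged to this set. The other 4 were the epithelial genes Krt7, Krt8, Krt18 and Wfdc2, of which Krt8 and Krt18 belong to the rule. Wfdc2 was at 225 CPM in the members, 223 CPM in titled positive oligodendrocytes and 2892 CPM in carcinoma cells. Its level in microglia was near that of the oligodendrocytes, which should lack the gene and were held to the same epithelial limit.

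The 10 lowest genes had no UMI in titled positive microglia, and were mostly genes known from astrocytes, such as Fabp7 (at 221 CPM in titled control microglia, at least 101-fold lower), Cldn10 and Ntsr2. They moved with the astrocyte marker level given above, and the part of astrocyte RNA in these ratios was not tested. After estimated free RNA was subtracted, the log2 ratio was 2.87 for both Fabp7 and Spock3. With no UMI of either gene in titled positive microglia, this value rests on the pseudocount, and no direction is drawn from it. The 10-gene ends of the ranking therefore held genes of other cell types at both ends.

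Proliferation genes were higher in titled positive microglia for 15 of 16, with a median of 2.08. Rrm2, a ribonucleotide reductase subunit, stood at 60.4 and 8.10 CPM and Top2a at 137 and 23.9 CPM, while Stmn1 was lower, at 18.2 and 112 CPM. Once estimated free RNA was subtracted, the log2 ratio of Stmn1 was 8.06. That value rests on the pseudocount, so the direction of Stmn1 without free RNA is not known. The proliferation RNAs sat in a minority of cells. At least 8 of the 16 genes were detected in 38 titled positive microglia (14.6%), 55 titled control microglia (1.78%), 25 Arg1-high macrophages (3.51%) and 0 of 571 titled positive oligodendrocytes, which by the floor of 3 counts allows a share of up to 0.525%. Mki67, Top2a and Cdk1 were all detected in 28 titled positive (10.8%) and 44 titled control microglia (1.43%).

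The order of these 4 groups of cells was the same when their depth was made equal. With each cell thinned to 2000 UMIs, at least 4 of the genes were detected in 15.8% of titled positive microglia, 2.01% of titled control microglia, 4.91% of Arg1-high macrophages and 1.40% of titled positive oligodendrocytes. In carcinoma cells of the same library the share was 46.4%. Across the 260 cells the proliferation UMIs per 10000 UMIs had a Spearman correlation of 0.02 with the homeostatic UMIs per 10000, a description over cells of 1 library that share its depth and free RNA.

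**Figure D3:**
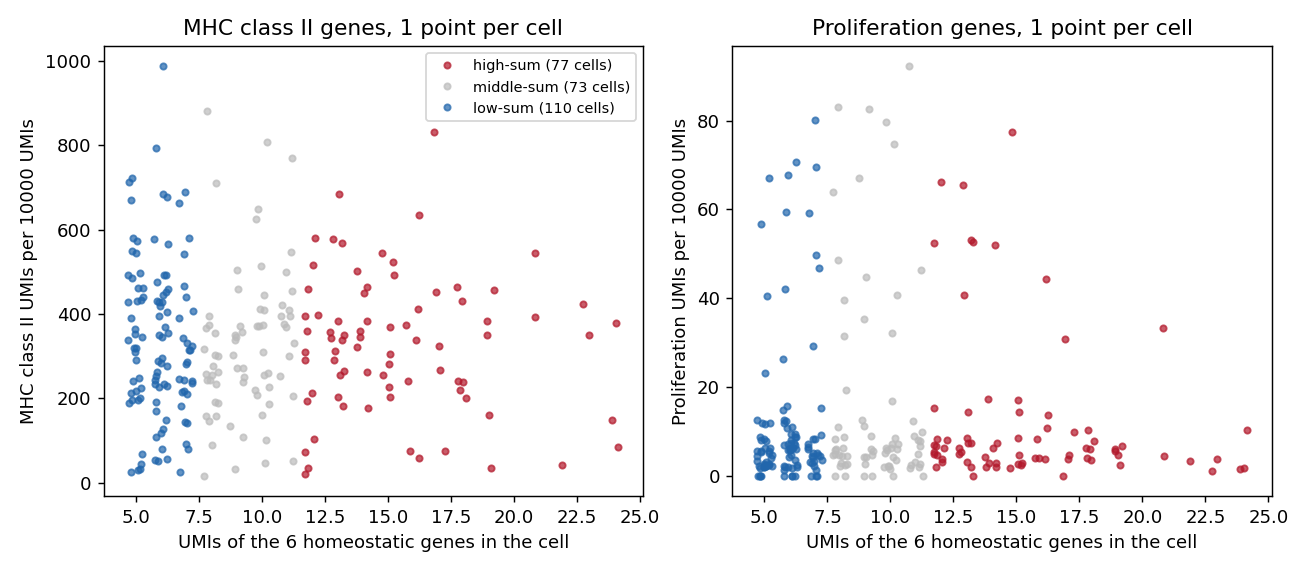
MHC class II UMIs (left) and proliferation UMIs (right) per 10000 UMIs of the cell against the homeostatic sum, 1 point per titled positive microglial cell, with sums jittered sideways. Red cells have a sum of 12 to 24, grey cells of 8 to 11 and blue cells of 5 to 7. Class II levels cover the same range in all 3 groups, and a minority of cells in each stands apart with high proliferation counts.

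From high to low homeostatic sum, few genes were seen to differ by at least 2-fold. The cells were split at the tertiles of the sum into 77 high-sum cells (12 to 24 UMIs), 73 middle cells (8 to 11) and 110 low-sum cells (5 to 7). Median depth was 5666 UMIs in high-sum cells, 4479 in middle cells and 4421.5 in low-sum cells, so the sum moved with depth. Of 5544 genes outside the rule, 2.85% were higher and 2.78% lower by at least 2-fold in high-sum over low-sum cells. Their median was -0.00, and the intervals of 5070 of them included 0. The median lower and upper bounds were -0.77 and 0.75, so for many genes a smaller difference could not be seen.

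Other homeostatic genes were higher in high-sum cells for 18 of 20 measured, with a median log2 ratio of 0.35, although 13 of the 20 intervals included 0. Crybb1, a crystallin gene that microglia express, stood at 222 CPM in high-sum cells, 133 CPM in middle cells and 90.6 CPM in low-sum cells, a log2 ratio of 1.29 (0.79 to 1.82). Its chromosomal neighbour Cryba4 (chromosome 5, 112246493 to 112252518, against 112255815 to 112269585 for Crybb1) stood at 153, 81.5 and 64.2 CPM.

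MHC class II levels were similar in high-sum and low-sum cells. Of 9 measured class II genes 3 were higher and 6 lower, with a median of -0.03, and none differed by 2-fold. Cd74 stood at 18564 CPM in high-sum cells and 18909 CPM in low-sum cells, a log2 ratio of -0.03 (-0.07 to 0.01). The Spearman correlation across the 260 cells between class II and homeostatic UMIs per 10000 was -0.01, and it was 0.46 for the other homeostatic genes. Both sides of these correlations were divided by the same cell total. Against the undivided homeostatic sum the values were -0.01 for class II and 0.30 for the other homeostatic genes. Among the 17 cells with no UMI of Epcam, Krt8 or Krt18 the class II median was 1.00, from 5 high-sum and 9 low-sum cells.

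Of 12 measured monocyte and macrophage markers 2 were higher and 10 lower in high-sum cells, with a median of -0.58, and 6 of the 12 intervals included 0. Their summed level was 3669 CPM in high-sum and 5844 CPM in low-sum cells. Per cell the median was 31.7 and 44.0 UMIs per 10000, and the highest count in 1 cell was 88 and 340 UMIs. Carcinoma markers moved the same way, with 6 of 7 lower (median -0.41) and summed levels of 586 CPM in high-sum and 842 CPM in low-sum cells, and the part of carcinoma RNA in the list's difference was not tested. Lyz2, the lysozyme gene, stood at 1064 CPM in high-sum and 2599 CPM in low-sum cells, a log2 ratio of -1.29 (-1.44 to -1.14), and at 9411 CPM in Arg1-high macrophages. Saa3, an acute-phase gene, stood at 2787 and 6601 CPM, and Ccl8 at 111 and 289 CPM. Under 5 alternatives the log2 ratio ran from -1.31 to -0.48 for Lyz2 and from -1.41 to -0.36 for Saa3. Much of the RNA of Lyz2 and Saa3 sat in few cells, as given further on. Klra2, at 33.6 and 90.6 CPM, and Lilr4b, at 29.4 and 71.7 CPM, belonged to the same end, but Lilr4b turned direction when cells were thinned (0.17). Klra2, Lilr4b, Saa3 and the guanylate-binding genes have close copies, so their counts are uncertain.

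Type I interferon genes leaned lower in high-sum cells, with 18 of 21 lower and a median of -0.17, and 15 intervals included 0. Class I (9 of 19 higher, median -0.00) and interferon gamma genes (7 of 16 higher, median -0.06) had medians near 0 whose sign changed with the processing. Dnajb9, a chaperone gene of the endoplasmic reticulum, had the highest ratio among named genes, at 86.1 CPM in high-sum and 26.4 CPM in low-sum cells (41 and 14 UMIs). Myc stood at 73.5 and 28.3 CPM and the sorting receptor gene Sort1 at 77.7 and 34.0 CPM. Under 4 alternatives the log2 ratio ran from 0.015 to 1.87 for Myc and from 0.73 to 1.17 for Sort1. At the other end Ikbkb, a kinase gene of the NF-kB pathway, stood at 25.2 and 77.4 CPM.

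**Figure D4:**
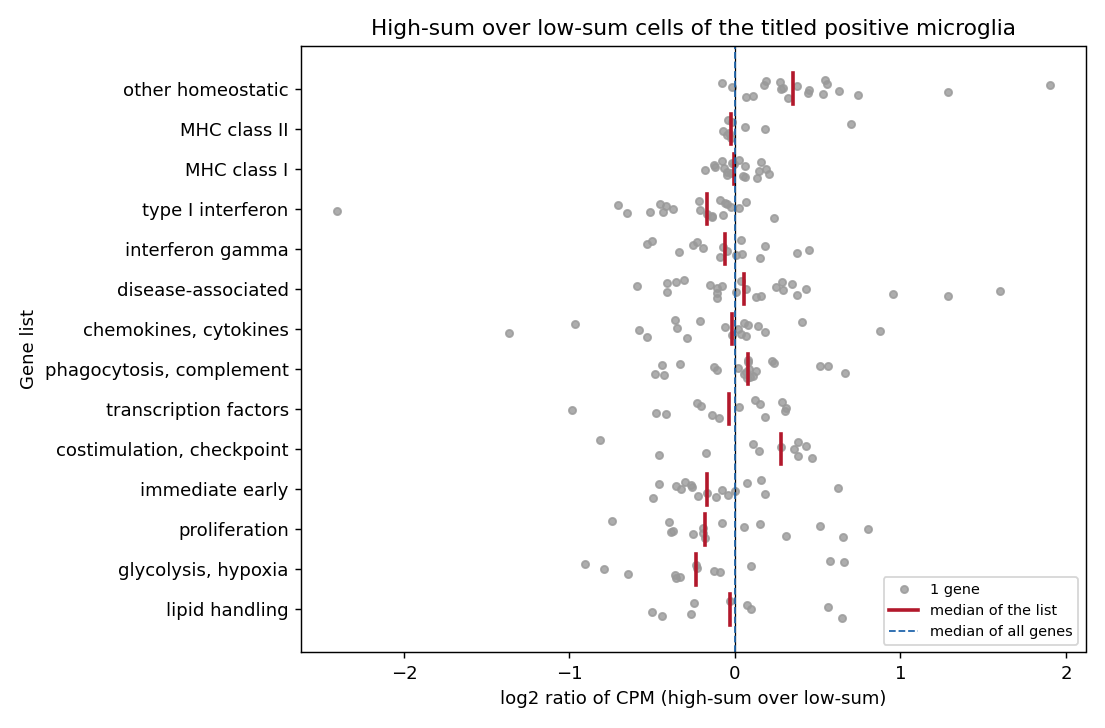
Log2 ratio of CPM in high-sum over low-sum titled positive microglia for the same 14 lists, 1 point per gene with at least 20 UMIs in both groups together and rule genes left out. Thick bars are list medians and the dashed line is the median of all 5544 genes. The other homeostatic genes had a median of 0.35 and MHC class II genes of -0.03.

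Arg1-high macrophages of the titled positive library (713 barcodes with at least 3 UMIs of Arg1, at least 1 of Csf1r, a homeostatic sum of at most 1 and at most 4 epithelial UMIs, median 5077 UMIs) were compared with the microglia. They were picked for Arg1 and a low homeostatic sum, opposite to the rule, and their closeness to the microglia was not compared with that of other myeloid cells. Of 10082 genes outside the rule, 8.62% were higher and 8.39% lower by at least 2-fold in the microglia, with a median of 0.06. Other homeostatic genes were higher in the microglia for 18 of 20, with a median of 1.63, although the same genes were below the titled control level. MHC class II genes were higher for 8 of 9 (median 0.45), with Cd74 at 18530 CPM in microglia and 13561 CPM in macrophages. Class I genes were near equal (9 of 19 higher, median -0.01), as were type I interferon genes (14 of 22, median 0.12), and interferon gamma genes were higher for 16 of 19 (0.66).

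Genes that set the microglia apart from these macrophages were Crybb1 (148 and 1.75 CPM), Cryba4 (99.7 and 2.50 CPM), the calpain gene Capn3 (95.3 and 1.25 CPM), Cd34 (118 and 2.25 CPM) and Gm48633, which had the highest log2 ratio of the genes named (7.01). Cd36, a scavenger receptor for oxidised lipid, was at 201 CPM in titled positive microglia, 3.24 CPM in the macrophages and 11.1 CPM in titled control microglia, so it stood above both. H2-Oa, at 175 and 8.98 CPM, was the class II gene with the widest gap. Among chemokine and cytokine genes Ccl12 stood at 5937 CPM in microglia and 339 CPM in macrophages. Chosen after their values were seen, Tnf stood at 366 and 28.2 CPM, Cxcl13 at 464 and 25.2 CPM, and Il1b at 594 and 2048 CPM. Most Cxcl13 UMIs of the microglia were in few cells, as given further on. The chemokine and cytokine list had a median of -0.15 with 10 of 22 genes higher.

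Glycolysis and hypoxia genes were lower in the microglia than in the macrophages for 14 of 14, with a median of -1.35. Vegfa, the endothelial growth factor gene that low oxygen induces, stood at 7.28 CPM in microglia and 204 CPM in macrophages. Gapdh stood at 2040 and 4192 CPM, and Ldha at 594 and 1172 CPM. Against titled control microglia the same list split, with 8 of 14 higher and a median of 0.12, and its interval of -0.02 to 0.25 included 0. Proliferation genes were higher than in macrophages for 16 of 16 (median 1.09). Both comparisons use the same 260 cells.

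Variation between the 260 cells was measured as the variance of each gene over that of Poisson counting at the cell's depth. Over 1989 genes with at least 100 UMIs the median ratio was 1.35, and 219 genes had a ratio over 2. The highest was Apod, an apolipoprotein gene, of whose 3645 UMIs 1846 were in 1 cell, and which titled positive oligodendrocytes held at 129921 CPM. Saa3 had a ratio of 237 and a highest count of 1052 UMIs in 1 cell, with 60.2% of its UMIs in 13 cells. Cxcl13, which attracts B cells, was detected in 13.5% of cells and had 93.1% of its UMIs in 13 cells.

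Other variable genes were spread more widely. Ccl12 (ratio 50.5) was detected in 95% of cells, with 26.9% of its UMIs in 13 cells, and Apoe (57.6) in 100% of cells, with 14% of its UMIs in 13 cells. Cd74 had a ratio of 27.3 although every cell carried it. Lyz2, whose summed level was higher in low-sum than in high-sum cells, had 46.7% of its UMIs in 13 cells. As with Saa3, its group level rests in part on few cells.

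**Figure D5:**
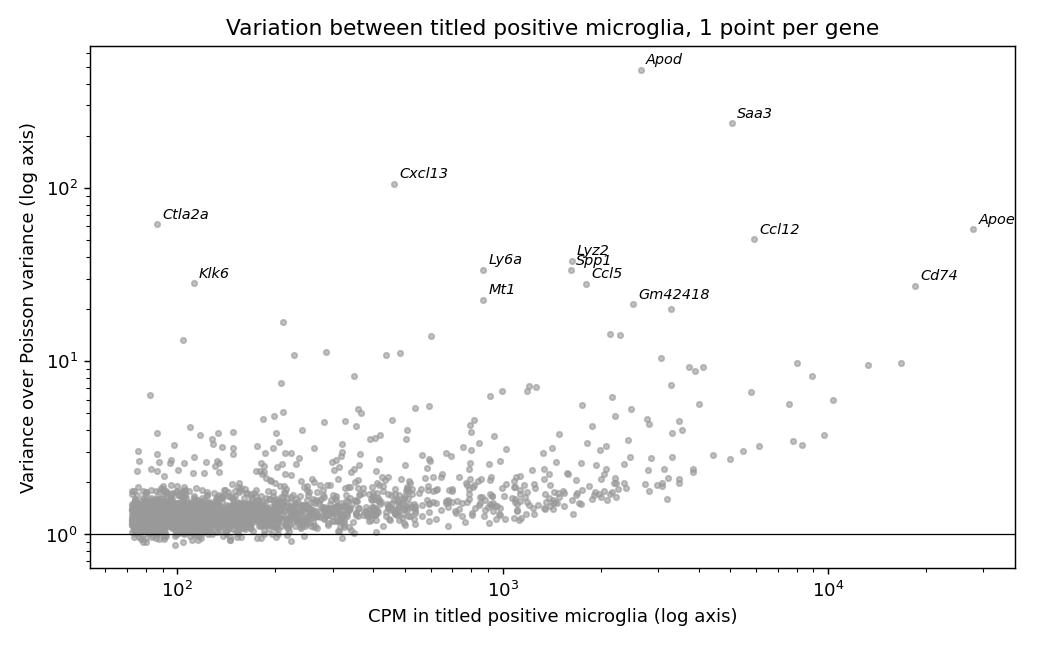
Variance over Poisson variance for each of 1989 genes against its level in the 260 titled positive microglia (both log axes), with the 14 highest genes named. The horizontal line marks a ratio of 1, and most genes lie between it and 2, while Apod (482), Saa3 (237) and Cxcl13 (106) lie far above.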

How the data were processed

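Both libraries were deposited as raw counts of UMIs per gene and barcode, with no normalization. Per the submitters' processing notes, Cell Ranger (version not given) and the build GRCm38 were used. The sources used here state no annotation release, cell calling or strand setting, so overlapping and antisense genes cannot be told apart. Genes with no UMI are absent from a library's list and were taken as 0. The deposited counts came from 98141261 UMIs in 10842 barcodes (titled positive) and 55657687 UMIs in 10417 barcodes (titled control).

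Members, and the same rule in the titled control library, were found from each barcode's own counts, without clustering. The members and gene lists were chosen with earlier results of these data known. UMIs were summed over cells and scaled to CPM with exact Poisson 95% intervals. Log2 ratios used a pseudocount of 0.5 counts and a conditional exact binomial interval, over genes with at least 20 UMIs in both sums together. The interval of a list median is the median of its genes' bounds. The floor was 3 counts in the group's sum. Oligodendrocytes had at least 5 UMIs of Mog, Mag, Opalin and Cldn11, none of Csf1r and at most 4 epithelial UMIs, and carcinoma cells at least 10 UMIs of Epcam, Krt8 and Krt18 and none of Csf1r. Doublets were called by Scrublet in scanpy 1.11.5 and kept, except in 1 alternative. Computing used Python 3.11.15, numpy 2.4.6 and scipy 1.17.1, and the ratio and thinning steps were tested on simulated data.

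Genes named were the rule genes and markers, the 2 highest, 2 lowest and 2 most abundant of each list, the 10 highest and 10 lowest over titled control members (at least 100 UMIs in the higher sum) and of high-sum over low-sum cells (at least 50 UMIs), and the 10 highest over Arg1-high macrophages (at least 100 UMIs). Other genes named, among them Trem2, Ctsd, Tnf, Cxcl13, Il1b, Apod, H2-Aa, Igtp and those of the plots, were chosen after their values were seen. Some genes that the rule names are not reported here. Coordinates are from GENCODE M21 and promoters from RefSeq on GRCm38.p6.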

Additional observations from a re-analysis of the deposited data

How the results depend on the processing

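The number of titled positive microglia depended on the rule. It was 112 with a sum of at least 10, 124 when barcodes were thinned to 2000 UMIs first and 119 with Cx3cr1 and Siglech left out of the sum, against 260. It was 258 with doublets and low-quality barcodes left out, 254 with oligodendrocyte UMIs of at most 4 and 321 with Arg1 of up to 2 UMIs. The last 2 alternatives were chosen after seeing the data. Under 10 alternatives the medians over titled control microglia kept their direction for homeostatic genes outside the rule (-2.42 to -2.05), MHC class II, class I, type I interferon and interferon gamma genes. The MHC class II median was 5.32 with a sum of at least 10, 4.98 when thinned, 5.43 without Cx3cr1 and Siglech, 5.0 without doublets, 4.85 with oligodendrocyte UMIs of at most 4 (2071 titled control cells) and 6.10 with estimated free RNA subtracted (11.8% of titled positive and 36.3% of titled control UMIs). The class I median was 2.24 when thinned, 2.44 without Cx3cr1 and Siglech, 2.25 without doublets, 2.21 with the oligodendrocyte limit, 2.32 as a mean of per-cell CPM and 2.23 with free RNA subtracted. The type I interferon median was 1.77 without doublets, and the interferon gamma median 3.61 when thinned.

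Directions turned with free RNA subtracted for Fabp5 (0.54), Ndrg1 (1.14), Irf8 (-0.021) and Lgals9 (-0.094), and when thinned for Irf8 (-0.11) and H2-Ob (0.20). With free RNA subtracted the ratio was also positive for Stmn1 (8.06), Fabp7 (2.87) and Spock3 (2.87), but these values rest on the pseudocount. Fabp7 and Spock3 had no UMI in titled positive microglia, so no turn of direction is drawn for them. The lipid handling median turned to -0.20 without Cx3cr1 and Siglech. A subtracted titled control count can reach 0, where the ratio rests on the pseudocount. Of high-sum over low-sum cells, the medians of class II, class I, chemokine, transcription factor and immediate early genes each changed sign under 3 of 5 alternatives, and those of proliferation and lipid handling genes under 2. Hist1h2bc (0.32) and Lilr4b (0.17) turned when thinned, and Safb when ranked by UMIs per 10000 (-0.43) and when thinned (-0.025). The class II median was 1.00 in members with no epithelial UMI, which are 17 cells. The cause of these turns was otherwise not tested. No paired analysis was possible because each group is 1 library. With 1374352 UMIs in the members' sum, a gene at 0 has an upper 95% bound of 2.68 CPM.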
